A study of Homo sapiens with 6 samples.

Results

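KNDC1, CYREN, PRCP and ATXN7L3B are 4 human genes that were picked from an RNA sequencing experiment because their levels were lower in cells given the ERbeta plasmid than in cells given an empty vector, with or without a correction for GC content. They are 4 of 64299 genes in the count table and 4 of the 16243 genes that passed a filter on low counts. All 6 libraries came from HEK293T cells, an established line of human embryonic kidney origin that takes up plasmids readily; the series text calls them HEK293. The cells were transfected with FuGene 6, a lipid-based reagent, and carried either ERbeta expression (3 libraries, ERbeta 1 to 3) or the control plasmid (3 libraries, EV_Ctrl 1 to 3). The labels do not define ERbeta. Background knowledge, not the labels, is the ground for reading it as an artificial β-sheet protein sent into the endoplasmic reticulum (ER) and not as estrogen receptor beta. The share of cells that took up plasmid is not given. Fewer cells that express a gene and less RNA per cell cannot be told apart in such bulk RNA.

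The genes encode unrelated proteins. KNDC1 is an exchange factor that loads Ras with GTP; in mouse it is known from cerebellar neurons, where it restrains dendrite growth. CYREN, a small protein that binds the Ku heterodimer, regulates non-homologous end joining, the direct re-ligation of broken DNA ends, in a cell cycle-dependent way. PRCP is a prolylcarboxypeptidase, a glycosylated lysosomal enzyme that enters the secretory pathway through the ER and removes the last amino acid of peptides such as angiotensin II when it follows a proline. ATXN7L3B is an intronless relative of ATXN7L3, an adaptor of the deubiquitinase module of the SAGA coactivator. The ATXN7L3B protein is mainly cytoplasmic and binds the shared subunit ENY2. Of the 4 proteins PRCP alone is made at the ER as a secretory pathway protein.

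Total counts ran between 13149304 and 16531368 for ERbeta, and between 6833442 and 27101644 for EV_Ctrl. Of 8 genes known from HEK293 cells, PAX2, LHX1, NEFM, NEFL, VIM, KRT8, KRT18 and CDH2 all had at least 48 reads in every library, while the leukocyte marker CD3E and the hepatocyte marker TTR had 0 reads. Of the fibroblast markers, COL1A1 had 168 to 509 reads per library and DCN 0 to 2. The libraries differed in how level depended on the GC content of the transcript, and not by group alone. For genes at 40% GC a smooth curve of level on GC content lay 0.08 to 0.33 above the mean of the 6 libraries (log2) in ERbeta, 0.11 above it in EV_Ctrl 2, while EV_Ctrl 1 and 3 were at -0.37 and -0.30. EV_Ctrl 2 thus ran with the ERbeta libraries at that GC content, and GC-corrected values are therefore given with and without these control libraries. Levels are counts per 1000000 library counts (CPM) after TMM scaling, a scaling that sets most genes equal between libraries. The labels do not say that the replicates came from separate cultures, so their spread may be technical.

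KNDC1 had the lowest level of the 4 genes and, without GC correction, the largest fold difference. The gene (ENSG00000171798.15) lies on chromosome 10 (133160447 to 133226412, plus strand, GRCh38). It had 61, 57 and 38 reads in ERbeta 1, 2 and 3, against 50, 165 and 89 reads in EV_Ctrl 1, 2 and 3. These reads correspond to 3.77, 3.71 and 3.05 CPM in ERbeta, set against 6.93, 6.22 and 7.75 CPM in EV_Ctrl. Every ERbeta library lay below every EV_Ctrl library. ERbeta averaged 3.51 ± 0.40 CPM, against 6.97 ± 0.77 CPM for EV_Ctrl (mean ± SD, n = 3 per group), which is -0.97 ± 0.17 as a log2 fold change (± standard error from edgeR's fit). The spread between replicates, 11.4% of the mean in ERbeta and 10.99% in EV_Ctrl, was no larger than counting error gives for so few reads, 14.2% and 11.1%. By exact binomial 95% intervals, which cover counting error only, ERbeta 1 lay between 2.88 and 4.83 CPM and EV_Ctrl 1 between 5.13 and 9.12 CPM. The highest upper limit in ERbeta was thus 4.83 CPM, and the lowest lower limit in EV_Ctrl 5.13 CPM. Thinned to the depth of the smallest library, the log2 fold change was -0.79.

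CYREN was lower by a small amount. The gene (ENSG00000122783.14) lies on chromosome 7 (135092363 to 135170795, minus strand, GRCh38). Its reads numbered 724, 735 and 550 in ERbeta 1, 2 and 3, set against 366, 1379 and 596 in EV_Ctrl 1, 2 and 3. That is 44.7, 47.9 and 44.1 CPM in ERbeta against 50.7, 52.0 and 51.9 CPM in EV_Ctrl, with no overlap between the groups. ERbeta averaged 45.6 ± 2.02 CPM, against 51.5 ± 0.72 CPM for EV_Ctrl (mean ± SD, n = 3 per group). The log2 fold change was -0.18 (standard error 0.10). The EV_Ctrl values differed among themselves by less than counting error gives (1.39% of the mean, against 4.14%).

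PRCP had overlapping groups. Its gene (ENSG00000137509.8) lies on chromosome 11 (82823502 to 82970584, minus strand, GRCh38). It had 1704, 1806 and 1413 reads in ERbeta 1, 2 and 3, against 931, 3417 and 1287 reads in EV_Ctrl 1, 2 and 3. The levels were 105.2, 117.6 and 113.4 CPM in ERbeta, set against 129.0, 128.8 and 112.1 CPM in EV_Ctrl. EV_Ctrl 3 lay below ERbeta 2 and 3, while EV_Ctrl 1 and 2 lay above all ERbeta libraries. ERbeta averaged 112.1 ± 6.30 CPM, against 123.3 ± 9.72 CPM for EV_Ctrl (mean ± SD, n = 3 per group). The log2 fold change was -0.14 (standard error 0.11). Without EV_Ctrl 3 the log2 fold change was -0.20, and without ERbeta 1 or EV_Ctrl 1 it was -0.11 and -0.10.

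ATXN7L3B, at the highest CPM of the 4 genes, was again lower in every ERbeta library. The gene (ENSG00000253719.3) occupies chromosome 12 from 74537827 to 74545430 on the plus strand (GRCh38) as a single exon of 7604 bases, of which 291 are coding. Reads numbered 1985, 1762 and 1591 in ERbeta 1, 2 and 3, set against 1112, 3730 and 1679 in EV_Ctrl 1, 2 and 3. In CPM these were 122.6, 114.8 and 127.6 in ERbeta, against 154.1, 140.6 and 146.2 in EV_Ctrl. ERbeta averaged 121.7 ± 6.48 CPM, against 147.0 ± 6.75 CPM for EV_Ctrl (mean ± SD, n = 3 per group). The log2 fold change was -0.27 (standard error 0.10). Its spread, 5.33% of the mean in ERbeta and 4.59% in EV_Ctrl, exceeded the counting error of 2.38% and 2.42%.

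**Figure D1:**
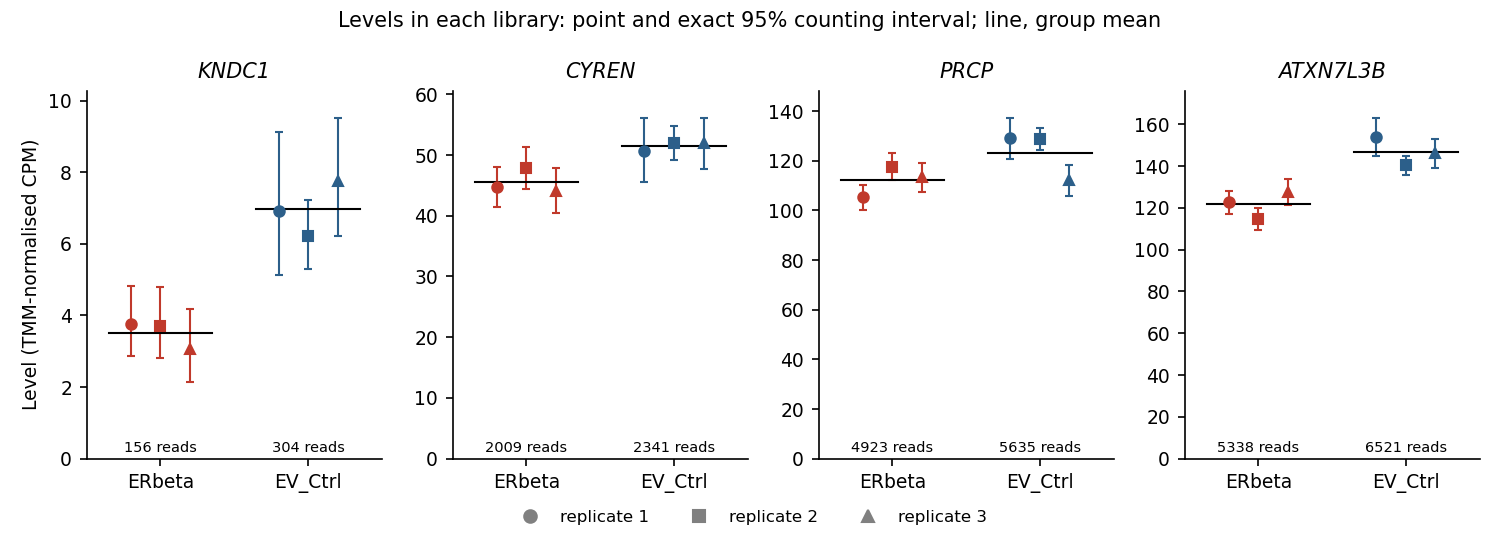
Level of each gene (TMM-normalised CPM, linear axes from 0) in the 3 ERbeta libraries (red, left) and the 3 EV_Ctrl libraries (blue, right); points are libraries with exact 95% counting intervals, black lines are group means, and the summed reads stand at the foot. The groups are apart for KNDC1, CYREN and ATXN7L3B, while for PRCP the EV_Ctrl 3 library at 112.1 CPM lies among the ERbeta libraries.

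ATXN7L3B and ATXN7L3 share no identical window of 50 bases in their annotated transcripts. Whether an aligner that allows mismatches tells their reads apart was not tested. The coding sequences of ATXN7L3B and ATXN7L3 aligned over 178 bases with 84.3% identity, and the longest run without a difference was 32 bases. Of the 7555 windows of 50 bases in ATXN7L3B, 0 occur on the same strand in a transcript of any other gene. The same holds for KNDC1 (0 of 7975) and CYREN (0 of 5509), and PRCP shares 15 of 13244. The read length was not used here. ATXN7L3 itself averaged 121.9 ± 6.90 CPM in ERbeta, against 126.9 ± 8.14 CPM for EV_Ctrl (SD, n = 3 each), and its groups overlapped.

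Of the genes that overlap the 4 loci on the other strand, DDIAS had 2880 reads over the 6 libraries, AGBL3 484 and each of the others at most 48. Since the strand setting of the counting is not given, reads from overlapping exons cannot be assigned with certainty. CYREN shares 1044 of its 5509 windows with opposite-strand genes. All of these are with ENSG00000272941, an antisense RNA with 15 reads over the 6 libraries, and with TMEM140, with 48 reads. AGBL3, whose span overlaps CYREN, averaged 6.51 ± 0.08 CPM in ERbeta, against 4.07 ± 0.69 CPM for EV_Ctrl (SD, n = 3 each). PRCP overlaps DDIAS, which averaged 36.8 ± 4.37 CPM in ERbeta, against 22.9 ± 12.5 CPM for EV_Ctrl, and shares 235 windows with it, 1.77% of its own. The antisense gene inside ATXN7L3B had 0 reads, and KNDC1 overlaps no annotated gene. Of the 8 nearest tested genes, 1 on each side of each member, 6 had a positive log2 fold change, beside 48.3% of all tested genes. RAB30 and FAM181B, beside PRCP, were at 0.78 and -0.20, and CALD1 and WDR91, beside CYREN, at 0.55 and -0.22. LINC01166 and ADAM8, beside KNDC1, were at 0.52 and 0.36, and TBC1D15 and CAPS2, beside ATXN7L3B, at 0.92 and 0.79. None of these 8 passed an adjusted p of 0.05 in edgeR's test. After GC correction by the longest transcript they were at 0.24, -0.12, 0.33, -0.14, 0.59, 0.51, 0.41 and 0.26, in the same order. AGBL3 and DDIAS were then at 0.40 and 0.29, beside 0.64 and 0.66 without correction.

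By the longest annotated transcript of each gene, the 4 genes lie at opposite ends of the GC range. KNDC1 then has 63.5% GC, and CYREN, PRCP and ATXN7L3B have 36.0%, 37.2% and 38.7%. By the longest coding transcript CYREN has 55.9% GC and PRCP 43.7%. At the GC content of KNDC1 the mean curve of ERbeta minus that of EV_Ctrl was -0.18 (log2), and at those of CYREN, PRCP and ATXN7L3B it was 0.62, 0.56 and 0.46. By the longest transcript, the differences of CYREN, PRCP and ATXN7L3B thus had the opposite sign to the curve at their GC content, and that of KNDC1 the same sign. By the longest coding transcript the curve was at -0.11 for CYREN, the same sign as its difference, and at 0.13 for PRCP and 0.48 for ATXN7L3B.

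**Figure D2:**
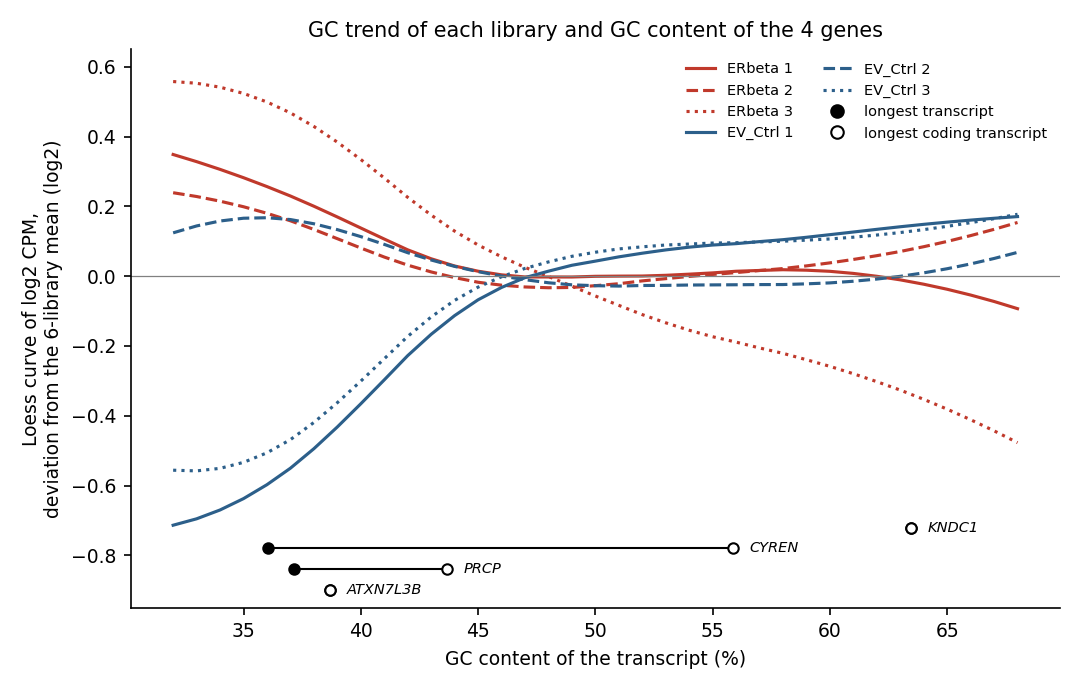
Loess curve of log2 CPM on transcript GC content for each library, as the deviation from the mean of the 6 libraries (ERbeta red, EV_Ctrl blue); the marks at the foot give the GC content of each gene by its longest transcript (filled) and its longest coding transcript (open), which coincide for KNDC1 and ATXN7L3B. At low GC the EV_Ctrl 1 and 3 curves fall below the other 4, and CYREN moves from 36.0% to 55.9% GC with the choice of transcript.

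Correcting for GC content by the longest transcript brought the 4 fold changes close together. The log2 fold changes were -0.81 ± 0.15 for KNDC1, -0.81 ± 0.20 for CYREN, -0.71 ± 0.17 for PRCP and -0.76 ± 0.17 for ATXN7L3B (± standard error, edgeR). All 4 then had every ERbeta library below every EV_Ctrl library. For CYREN, PRCP and ATXN7L3B the correction spread the EV_Ctrl libraries apart. CYREN was at 37.5, 42.3 and 31.3 corrected CPM in ERbeta 1, 2 and 3, against 76.7, 46.3 and 73.8 in EV_Ctrl 1, 2 and 3. PRCP was at 90.1, 105.8 and 82.4 in ERbeta, set against 187.9, 115.3 and 154.5 in EV_Ctrl. ATXN7L3B was at 108.4, 106.0 and 97.0 in ERbeta, set against 210.8, 127.9 and 190.6 in EV_Ctrl. In each of these 3 genes EV_Ctrl 2 stood nearer to ERbeta than to the other 2 control libraries. With EV_Ctrl 2 as the only control the corrected log2 fold changes were -0.32 for CYREN, -0.31 for PRCP and -0.30 for ATXN7L3B, and -0.74 for KNDC1. Without EV_Ctrl 2 they were -1.02, -0.88, -0.95 and -0.86. KNDC1 kept its groups tight, at 3.81, 3.52 and 3.86 corrected CPM in ERbeta, set against 6.27, 6.21 and 7.10 in EV_Ctrl.

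For CYREN and PRCP the corrected value depended on which transcript stood for the gene. CYREN has 14 annotated transcripts with 36.0% to 58.0% GC. The longest, of 2576 bases, is a processed transcript with no coding sequence, and 86.2% of it lies outside all annotated coding and untranslated parts of the gene. The longest coding transcript has 1738 bases and 55.9% GC. The longest PRCP entry, of 7072 bases, is a single-exon model of the GENCODE type TEC, a class set aside for experimental follow-up, at 37.2% GC against 43.7% for the longest coding transcript. KNDC1 and ATXN7L3B have the same transcript by either choice. The choice mattered little for most genes: GC content differed by over 5 percentage points in 3.93% of 13515 genes, and it was at least 19 points lower in the longest transcript for 5 genes, CYREN among them.

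The difference is visible in the sequence. The first 120 bases of the longest coding exon of KNDC1, CYREN and PRCP are given, followed by 120 bases from the middle of the non-coding part of the longest CYREN transcript, all read 5′ to 3′ in the direction of transcription with G and C in capitals (GENCODE 29 transcripts, GRCh38). They lie at chr10:133185974-133186093 (plus strand), chr7:135166752-135166871 (minus), chr11:82825003-82825122 (minus) and chr7:135093413-135093532 (minus), in that order.
KNDC1 coding exon: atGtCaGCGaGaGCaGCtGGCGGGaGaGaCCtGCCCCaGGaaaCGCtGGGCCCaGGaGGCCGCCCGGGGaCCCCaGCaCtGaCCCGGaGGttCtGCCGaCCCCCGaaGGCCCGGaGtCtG
CYREN coding exon: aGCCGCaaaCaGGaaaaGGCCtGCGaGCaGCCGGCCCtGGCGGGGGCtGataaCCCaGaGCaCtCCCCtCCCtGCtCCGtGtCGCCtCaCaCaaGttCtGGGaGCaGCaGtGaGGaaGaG
PRCP coding exon: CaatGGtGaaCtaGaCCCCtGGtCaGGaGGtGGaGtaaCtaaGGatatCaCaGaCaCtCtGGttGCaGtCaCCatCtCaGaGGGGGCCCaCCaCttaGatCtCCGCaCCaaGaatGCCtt
CYREN non-coding transcript: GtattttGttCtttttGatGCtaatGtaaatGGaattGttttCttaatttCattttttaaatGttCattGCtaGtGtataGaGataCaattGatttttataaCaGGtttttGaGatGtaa
The stretches hold 71.7%, 64.2%, 52.5% and 23.3% G and C. The coding exon of CYREN stands next to that of KNDC1, while the transcript that set its GC value in the first correction stands at the other end.

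With GC content taken from the longest coding transcript, the CYREN difference was smaller than without correction. Its log2 fold change was -0.08, and the groups overlapped, at 44.3, 47.7 and 50.003 corrected CPM in ERbeta 1, 2 and 3 against 47.7, 53.0 and 48.8 in EV_Ctrl 1, 2 and 3. PRCP was at -0.26, with 102.7, 117.5 and 102.4 corrected CPM in ERbeta, set against 141.9, 125.8 and 119.4 in EV_Ctrl, which did not overlap. KNDC1 at -0.81 and ATXN7L3B at -0.78 were close to the first correction. With the mean GC content over all transcripts of a gene the values were -0.79 for KNDC1, -0.11 for CYREN, -0.39 for PRCP and -0.88 for ATXN7L3B. Counts per gene do not show which transcripts the reads came from.

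**Figure D3:**
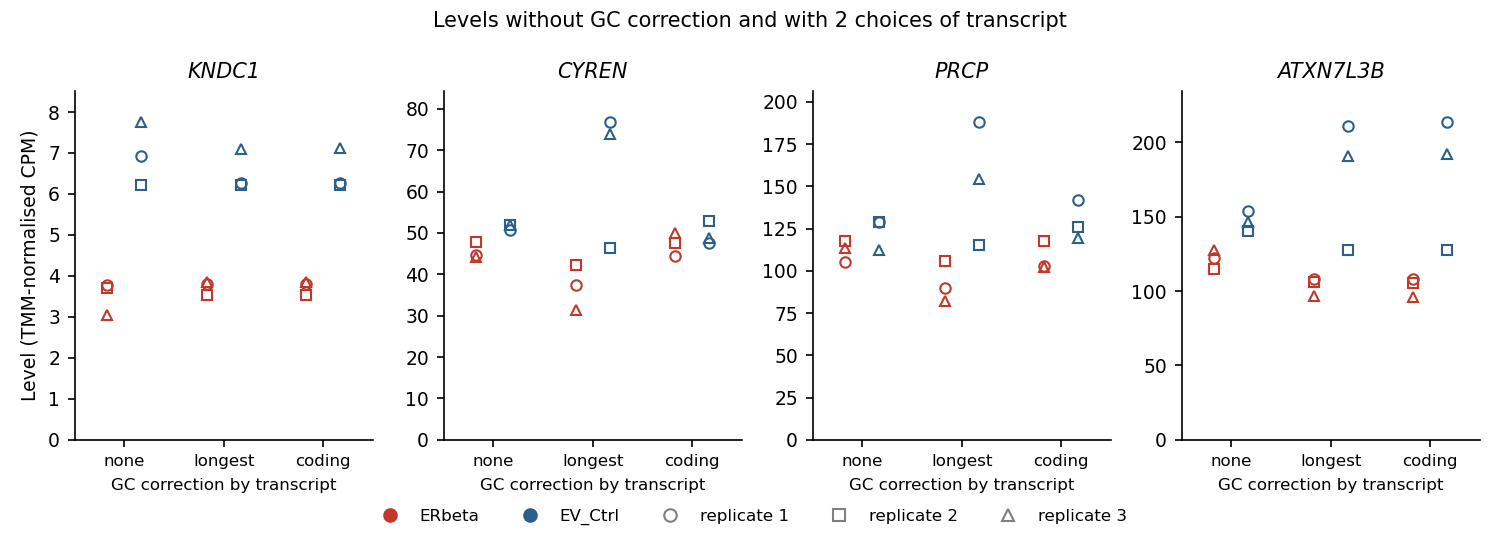
Levels of the 4 genes (TMM-normalised CPM, linear axes from 0) in each library without GC correction, with correction by the longest transcript and with correction by the longest coding transcript; ERbeta is red and left, EV_Ctrl blue and right, and marker shape gives the replicate. The CYREN groups separate at 31.3 to 42.3 against 46.3 to 76.7 corrected CPM by the longest transcript and overlap by the coding transcript. With correction by the longest transcript EV_Ctrl 2 (square) is the control nearest to ERbeta for CYREN, PRCP and ATXN7L3B.

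Signs were negative for all 4 genes under each of the 21 alternatives that were run. The log2 fold change ranged from -1.08 to -0.74 for KNDC1, from -1.02 to -0.08 for CYREN, from -0.88 to -0.10 for PRCP and from -0.95 to -0.20 for ATXN7L3B. Leaving out any library without GC correction gave -1.08 to -0.88 for KNDC1, -0.21 to -0.15 for CYREN, -0.20 to -0.10 for PRCP and -0.32 to -0.23 for ATXN7L3B. The genes were picked for this sign in these libraries, so its constancy describes the choice.

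**Figure D4:**
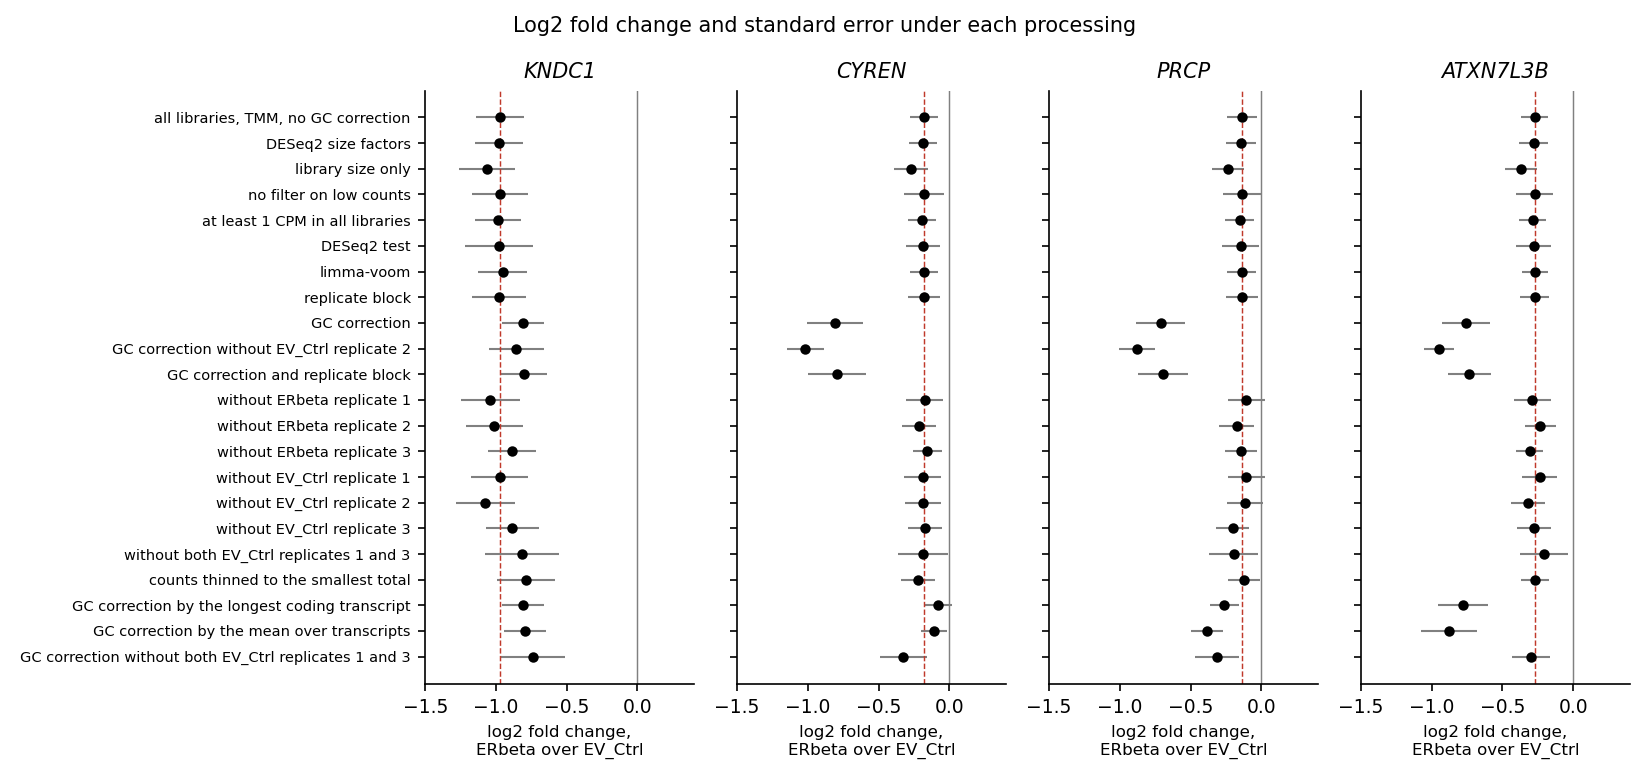
Log2 fold change (ERbeta over EV_Ctrl, negative means lower in ERbeta) of each gene under each processing, with its standard error; the dashed red line marks the value with all libraries and no GC correction, and the grey line marks 0. KNDC1 stays between -1.08 and -0.74, while CYREN and PRCP move with the transcript used for GC content. ATXN7L3B, with 1 annotated transcript, ranges from -0.95 to -0.20, beside -1.02 to -0.08 for CYREN and -0.88 to -0.10 for PRCP.

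As the members were selected on this comparison, counts of them past a threshold are a description of the choice and support nothing. Without overlap and lower in ERbeta were 3 of the 4 genes, KNDC1, CYREN and ATXN7L3B, beside 8.48% of 16243 tested genes. After GC correction by the longest transcript there were 4 of 4, beside 7.68% of 16091 genes, and by the coding transcript 3 of 4, beside 7.66%. Genes without overlap both before and after correction by the longest transcript numbered 657 of 16091 (4.08%), 3 of the 4 among them, so the pattern is not particular to the 4 genes. By edgeR (quasi-likelihood test, Benjamini-Hochberg adjusted) 0 of the 4 passed, as did 0 of all tested genes in the lower direction (0%), with GC correction too (0%), while 468 genes were lower at an unadjusted p under 0.05 (2.88%), 2 of the 4 among them. limma-voom called 0 lower. Negative log2 fold changes made up 51.7% of all tested genes. DESeq2 called 1 gene lower of 16219 with an adjusted p (0.00617%), and that gene was KNDC1. Without EV_Ctrl 2 edgeR called 158 lower (0.973%), KNDC1 being 1 of the 4 to pass. With GC correction and without EV_Ctrl 2 it called 619 lower (3.85%), and 4 of the 4 passed. In the higher direction, none of the 4 being among them, the shares were 9.54% at an unadjusted p under 0.05, 0.432% by DESeq2, 12.9% without EV_Ctrl 2, 0.0559% with GC correction by either transcript and 6.42% with GC correction and without EV_Ctrl 2. HSPA5, the ER chaperone BiP, was higher in every ERbeta library, at 869.9 to 887.9 CPM against 500.8 to 536.1 CPM in EV_Ctrl. Its log2 fold change was 0.75, and its adjusted p of 0.130 (edgeR) was the smallest of all tested genes.

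Compared per length, KNDC1 stood far below the other genes, and the order of the rest depended on the length used. Per kilobase of all annotated exons the levels were 0.44 ± 0.05 CPM per kb in ERbeta and 0.87 ± 0.10 in EV_Ctrl for KNDC1. CYREN was at 8.56 ± 0.38 in ERbeta and 9.68 ± 0.13 in EV_Ctrl, and PRCP at 8.76 ± 0.49 and 9.63 ± 0.76. ATXN7L3B was at 16.0 ± 0.85 CPM per kb in ERbeta and 19.3 ± 0.89 in EV_Ctrl (SD, n = 3 each). CYREN and PRCP did not differ beyond their spread on this scale. Per kilobase of the longest coding transcript the order was KNDC1, ATXN7L3B, CYREN and PRCP. CYREN was then at 26.2 ± 1.16 CPM per kb in ERbeta and 29.7 ± 0.41 in EV_Ctrl, and PRCP at 36.3 ± 2.04 and 39.9 ± 3.15.

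The pathways in which the 4 proteins act were looked at through 8 gene lists, none chosen for how its genes moved. Over all tested genes the median log2 fold change was -0.01, with 10.2% higher and 8.48% lower without overlap between the groups. In each list 0 genes passed edgeR's adjusted threshold in either direction.

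For DNA end joining, the process of CYREN, 12 of 21 measured genes had a positive log2 fold change and 9 a negative one, with a median of 0.08. The Ku subunits that CYREN binds were at 658.7 ± 105.6 CPM in ERbeta and 617.2 ± 49.6 in EV_Ctrl for XRCC5, and at 801.5 ± 52.2 and 769.6 ± 53.0 for XRCC6 (SD, n = 3 each). Neither difference exceeded its spread. APLF, a histone chaperone that assists end joining, averaged 5.27 ± 0.54 CPM in ERbeta, against 2.72 ± 0.95 CPM for EV_Ctrl, the 1 gene of the list without overlap (adjusted p 0.397, edgeR). LIG4, the ligase of the pathway, and TDP2, which frees blocked DNA ends, had log2 fold changes of 0.70 ± 0.33 and 0.46 ± 0.21, not passing. After GC correction the log2 fold changes were 0.43 for APLF, against 0.86 before it, 0.19 for LIG4 and 0.13 for TDP2.

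For the SAGA deubiquitinase module, the complex of ATXN7L3, 3 of 8 genes were positive, 5 negative and 0 without overlap, with a median of -0.08. ENY2, the subunit that ATXN7L3B binds, averaged 60.7 ± 2.18 CPM in ERbeta, against 46.9 ± 15.9 CPM for EV_Ctrl. Its log2 fold change of 0.37 ± 0.23 did not pass, and after GC correction the sign turned, to -0.075. USP22, the catalytic subunit, averaged 369.0 ± 51.5 CPM in ERbeta, against 421.0 ± 53.4 CPM for EV_Ctrl (SD, n = 3 each). The adaptor ATXN7 was at a log2 fold change of 0.28 ± 0.15, its relative ATXN7L1 at 0.24 ± 0.14 and USP27X, another deubiquitinase, at -0.20 ± 0.12, none passing. The other SAGA modules had 11 of 18 genes positive, 3 of them higher without overlap, with a median of 0.04. These were TAF9B at 0.86 ± 0.32, SUPT3H at 0.38 ± 0.16 and SUPT20H at 0.35 ± 0.14, which after GC correction were at 0.39, 0.19 and 0.02.

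Lysosomal hydrolases, the class to which PRCP belongs, had mostly negative log2 fold changes. There were 33 of 41 measured genes below 0, beside 51.7% of all genes, with a median of -0.10 beside -0.01 over all genes, and 4 were lower and 1 higher without overlap. After GC correction the median was -0.03. CTSK, a collagen-cleaving cathepsin, had a log2 fold change of 0.46 ± 0.22 and ASAH1, acid ceramidase, 0.38 ± 0.19, neither passing, and ASAH1 was at -0.14 after correction. Peptidases that cut beside proline, as PRCP does, had 3 of 9 genes positive and a median of -0.04. DPP7, the closest relative of PRCP, averaged 29.8 ± 4.57 CPM in ERbeta, against 35.6 ± 1.95 CPM for EV_Ctrl, lower without overlap at -0.26 ± 0.14 and, after GC correction, at -0.03. PREPL, the 1 gene of this list higher without overlap, and DPP8 were at 0.53 ± 0.19 and 0.40 ± 0.18, not passing, and at 0.01 and -0.10 after correction. Of the angiotensin and kinin systems, 11 of 19 genes were measured, 8 positive and 3 negative with a median of 0.25 (-0.00 after correction). Without overlap, 2 of these 11 genes were higher and 1 lower, beside 10.2% and 8.48% of all tested genes. BDKRB2, a bradykinin receptor, averaged 2.08 ± 0.21 CPM in ERbeta, against 1.17 ± 0.18 CPM for EV_Ctrl, a log2 fold change of 0.78 ± 0.22. ATP6AP2, the prorenin receptor, was at 0.30 ± 0.12 and ANPEP, an aminopeptidase, at 0.85 ± 0.42, none of these passing. After GC correction BDKRB2, ATP6AP2 and ANPEP were at 0.84, 0.13 and 0.94.

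Exchange factors with a CDC25-type domain, as in KNDC1, went both ways, with 12 of 22 positive and a median of 0.02. Without overlap, 2 of these 22 genes were higher and 2 lower, beside 10.2% and 8.48% of all tested genes. RASGRP2, an activator of Rap1, averaged 1.47 ± 0.13 CPM in ERbeta, against 2.27 ± 0.16 CPM for EV_Ctrl (SD, n = 3 each); this is a log2 fold change of -0.64 ± 0.20 (adjusted p 0.397, edgeR) and, after GC correction, -0.48. RAPGEF2 and RAPGEF6, which activate Rap proteins, were at 0.38 ± 0.12 and 1.05 ± 0.36, and at 0.40 and 0.73 after correction. RASGRF1, the neuronal exchange factor, had 43 reads in all and did not pass the filter. Ras family GTPases and their activating proteins had 10 of 16 genes positive and a median of 0.29, which was 0.03 after GC correction. Of these 16 genes, 4 were higher and 1 lower without overlap, beside the same shares of all tested genes. RAP2A, RAP1A and RRAS2 were at 0.70 ± 0.24, 0.62 ± 0.21 and 0.48 ± 0.15, not passing, and after correction at 0.20, 0.14 and -0.13.

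**Figure D5:**
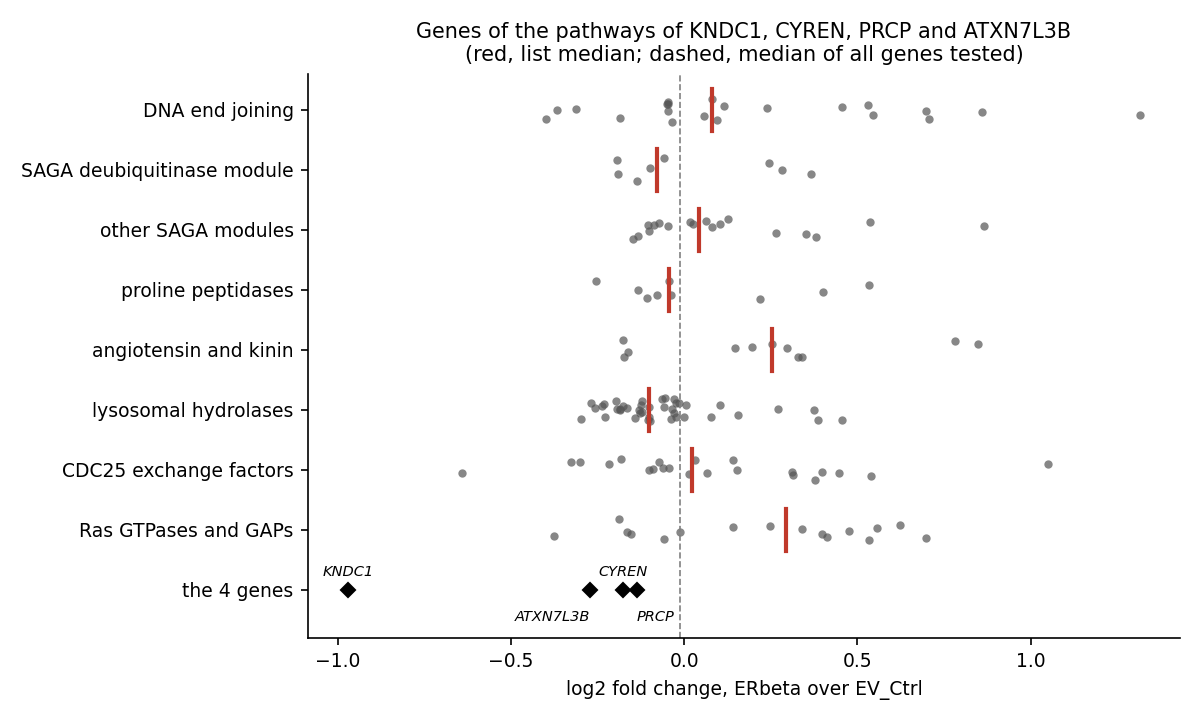
Log2 fold change (ERbeta over EV_Ctrl) of each measured gene in the 8 lists (grey points), with list medians in red, the median of all tested genes dashed at -0.01, and the 4 genes as black diamonds at the foot. KNDC1 at -0.97 lies below every point of the lists, while CYREN, PRCP and ATXN7L3B lie within their spread.

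Genes with a like pattern were sought among 13937 genes by the root mean square difference in log2 CPM over the 6 libraries, after centring each gene on its own mean. The nearest to KNDC1 were TRAPPC5 (0.14), PPP1R16B (0.16) and TMSB15B (0.17), at log2 fold changes of -0.73, -0.77 and -0.74. CHMP7 (0.02), ASTN2 (0.03) and TARBP1 (0.03) came nearest to CYREN, at -0.15, -0.17 and -0.16. PRCP was nearest to POLA2 (0.02), AP1S1 (0.02) and PINK1 (0.02), at -0.13, -0.15 and -0.10. LINC00674 (0.03), MAML3 (0.04) and MAPK13 (0.04) were nearest to ATXN7L3B, at -0.31, -0.24 and -0.21. The nearest genes of CYREN and PRCP have 47.4% to 58.1% GC, and after GC correction by the longest transcript they were at -0.14 to -0.02, beside -0.81 for CYREN and -0.71 for PRCP. By the longest coding transcript CYREN was at -0.08 and PRCP at -0.26. ATXN7L3B has 1 annotated transcript and was at -0.76 after correction by it. LINC00674, MAML3 and MAPK13 were then at -0.43, -0.16 and -0.13. For KNDC1, at -0.81 by the longest transcript, TRAPPC5, PPP1R16B and TMSB15B were at -0.64, -0.69 and -0.72. Among the 4 genes themselves CYREN and PRCP differed least from each other (0.08) and KNDC1 and PRCP most (0.46).

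The promoters of KNDC1, CYREN and PRCP held none of 4 longer motifs read by stress-responsive factors; that of ATXN7L3B was not analysed here. In RefSeq (GRCh38.p14) start sites were matched for KNDC1 (1), CYREN (2) and PRCP (2), and the 250 bases before each were searched on both strands. The ER stress element (ERSE), the XBP1 core TGACGTGG, the ATF4 composite site TGATGCAAT and the cAMP response element TGACGTCA were in 0 of these 5 windows. They were in 0.0740%, 0.612%, 0.216% and 1.65% of 35116 windows of all genes, and the absence of these letters says nothing of the factors. CCAAT alone, which the ER stress element contains, was found 3 times in 1 CYREN window and 2 times in 1 PRCP window, and in 32.01% of all windows. The KNDC1 window had 82.8% GC and the windows of CYREN 76.4% and 48.8%, beside a median of 58.0%.

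In the authors' deposited table the 4 genes were lower as well, at log2 fold changes of -0.73 for KNDC1, -0.17 for CYREN, -0.14 for PRCP and -0.26 for ATXN7L3B, with standard errors of 0.16, 0.09, 0.08 and 0.09. The authors' deposited table gives KNDC1 no adjusted p, at a mean of 68.99 normalised counts, where the lowest mean with one is 115.0. CYREN, PRCP and ATXN7L3B had adjusted p of 0.22, 0.23 and 0.067 there (Wald test), none under 0.05. In all, 48 genes were lower and 373 higher at an adjusted p under 0.05, of 11150 with one. HSPA5 was among the higher genes, at a log2 fold change of 0.72 (adjusted p 3.59e-21, Wald test). By its name, the authors' deposited table compares the same groups, so it is not taken as an independent measurement. Which libraries entered the authors' deposited table was not settled here, since it gives a mean above 0 to 8079 genes with 0 reads in all 6 libraries.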

How the data were processed

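Stranded poly(A) libraries (TruSeq Stranded mRNA, per the labels' protocols) were made from 6 transfected HEK293T samples, 3 ERbeta and 3 EV_Ctrl. Per the submitters' processing notes the tools were TopHat2, featureCounts and DESeq2, and the build was hg38. For versions, annotation and strand setting: not given in the sources used here. The authors deposited raw whole-number counts per gene and library. The authors' comparison table holds, per the file headers, a mean signal (mean normalised count), a log2 fold change with its standard error, a Wald statistic (a score) and p-values; it was used only for the values named as the authors'.

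Genes were kept with filterByExpr (minimum count 10, minimum total 15), leaving 16243, scaled by TMM and tested with edgeR 4.0.16 in R 4.3.3 (glmQLFit, glmQLFTest, group as the only term, Benjamini-Hochberg threshold 0.05). Standard errors come from the quasi-likelihood F statistic. The GC correction takes log2 CPM per library, fits it to transcript GC content by loess (span 0.5) and enters the curve as an offset, which leaves 16091 genes. Annotation, transcript sequences and coordinates are from GENCODE 29 on GRCh38; identifiers were matched without version, and 56105 found a symbol. Alternatives included DESeq2 1.42.0 and limma 3.58.1. Correction by coding or mean transcript GC, and GC correction with EV_Ctrl 2 as the only control, were added after seeing the data. The members, lists and tests were chosen with earlier results of these data known.

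Named genes are the 4 members, the 3 genes of each list with the smallest p, a few fixed partners and relatives (ATXN7L3, ENY2, USP22, XRCC5, XRCC6, DPP7, RASGRF1), overlapping and nearest tested genes, the 3 genes most like each member, and HSPA5; some items are not reported here. No replicate pair agreed within counting noise (chi-square per degree of freedom 4.99 to 37.6), so all libraries were counted. The fit was tested on simulated counts. The outcome is not reported here and is not used to back any value. Exact binomial (Clopper-Pearson) intervals are at 95%; reads carry no molecular identifiers. The table held 0 columns outside the 6 libraries and 0 entries that name no gene.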

Additional observations from a re-analysis of the deposited data

Results flagged for a closer look

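The authors' deposited table gives a mean above 0 to 8079 of the 33813 genes that had 0 reads in all 6 libraries of the count table. The result stands out as a signal outside the measurement used here. The reason was not tested. The fold changes of the authors' deposited table for KNDC1, CYREN, PRCP and ATXN7L3B are therefore given apart from those computed from the counts.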

How the results depend on the processing

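The 4 log2 fold changes stayed negative under all 21 alternatives. Scaling by library size only gave -0.27 for CYREN and -0.37 for ATXN7L3B, and thinning to the smallest library -0.79 for KNDC1. GC correction by the longest transcript gave -0.81 for CYREN, -0.71 for PRCP and -0.76 for ATXN7L3B. By the coding transcript the values were -0.077, -0.26 and -0.78, and by the mean over transcripts -0.11, -0.39 and -0.88, with -0.79 for KNDC1. GC correction without EV_Ctrl 2 gave -1.02 for CYREN, -0.88 for PRCP and -0.95 for ATXN7L3B. GC correction without both EV_Ctrl 1 and 3 gave -0.74 for KNDC1, -0.32 for CYREN and -0.31 for PRCP; EV_Ctrl 2 is then assumed to vary like the ERbeta libraries. The cause of these shifts was not tested.

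Over all genes, edgeR called 0 higher and 0 lower with all libraries, while 1550 and 468 had an unadjusted p under 0.05. Genes called higher numbered 51 with no filter on low counts, 9 with GC correction by the longest or the coding transcript, 1 by limma-voom and 70 by DESeq2, which also called 1 lower. Leaving out 1 library gave 0 to 2099 genes higher and 0 to 158 lower, the upper values without EV_Ctrl 2 and 0 without any other library. In the same way 0 to 7 of 21 genes were called higher for end joining. For the SAGA deubiquitinase module it was 0 to 1 of 8, and for other SAGA modules 0 to 4 of 18. For proline peptidases it was 0 to 1 of 9, and for the angiotensin and kinin systems 0 to 2 of 11. Lysosomal hydrolases had 0 to 1 of 41, exchange factors 0 to 5 of 22 and Ras proteins 0 to 7 of 16. The upper values again came without EV_Ctrl 2, where 12.9% of all 16243 tested genes were called higher. With GC correction and without EV_Ctrl 2 edgeR called 1033 higher (6.42% of 16091 genes) and 619 lower (3.85%). In the lists these were 1 higher of 21 for end joining, and 2 higher and 1 lower of 18 for other SAGA modules. Lysosomal hydrolases had 3 lower of 41, exchange factors 2 higher of 22, and Ras proteins 1 higher and 1 lower of 16.

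Replicate numbers did not pair the samples: deviations of same-numbered libraries correlated at 0.23, -0.14 and -0.15, and not every library correlated best with its own number. With the replicate number as a block the log2 fold changes were -0.98 for KNDC1, -0.18 for CYREN, -0.14 for PRCP and -0.27 for ATXN7L3B, with 0 genes called. With the block and GC correction together they were -0.80, -0.79, -0.69 and -0.73, again with 0 genes called. The depth limits KNDC1 most, with 38 to 165 reads per library.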
